A study of Mus musculus with 18 samples.

Results

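Foxc1, Foxc2, Meox1 and Tcf15 are 4 of the 22997 nuclear genes measured in single cells of the gastrulating mouse embryo. They were chosen by name as transcription factor genes of the paraxial mesoderm, and are described here by stage and by whether the same cell held a transcript of Mesp1, Tbx6, T or Hand1. The cells came from whole C57BL/6 wild-type embryos of embryonic day 6.75 (E6.75) or 7.5 (E7.5). Single E6.75 embryos lost their extraembryonic part before dissociation, their cells were picked by hand, and RNA was read with CEL-Seq2 in 6 libraries. E7.5 embryos were trimmed so that extraembryonic mesoderm stayed in, 1 or 2 litters were pooled, and sorted cells were read with mCEL-Seq2, the small-volume form of that method, in 12 libraries. Stage, collection, pooling and protocol changed together, and their parts in any difference between stages cannot be told apart.

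Mesoderm leaves the primitive streak during gastrulation, and its position along the body axis follows the place and time of exit. Paraxial mesoderm lies beside the midline, passes through a presomitic state and segments into somites, while lateral and extraembryonic mesoderm form the body wall, heart, allantois and yolk sac. Foxc1 and Foxc2 encode closely related forkhead factors that are needed together for paraxial mesoderm and somites. Meox1 encodes a homeodomain factor of somites, and Tcf15 (paraxis) a basic helix-loop-helix factor needed for somites to become epithelial, which is also known from epiblast cells. Of the marker genes, T (brachyury) marks the streak and new mesoderm, Mesp1 early mesoderm, Tbx6 presomitic mesoderm, and Hand1 lateral and extraembryonic mesoderm.

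In the GENCODE M21 annotation of GRCm38, Foxc1 is a single-exon gene on chromosome 13 at 31806633 to 31812476 (plus strand), and Foxc2 a single-exon gene on chromosome 8 at 121116171 to 121118895 (plus strand). Meox1 lies on chromosome 11 at 101877510 to 101894374 (minus strand) with 3 exons, and Tcf15 on chromosome 2 at 152143561 to 152149097 (plus strand) with 2 exons. Foxc2 lies within the span of Gm20388, and Gm11551 lies within Meox1 on the opposite strand, but no exon of either overlaps an exon of a member. Gm11551 held 1 transcript at E6.75 and 0 at E7.5.

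Of the 4 genes, 1 was found in the RefSeq promoter table (GRCm38.p6). The 237 bases before the annotated start of Foxc1, the member found in most E7.5 cells, are shown because Foxc1 is the member with the most positive cells and the member that table holds. They run from 31806396 to 31806632 on the plus strand of chromosome 13, and capitals mark a CCAAT box read on the opposite strand:
Foxc1: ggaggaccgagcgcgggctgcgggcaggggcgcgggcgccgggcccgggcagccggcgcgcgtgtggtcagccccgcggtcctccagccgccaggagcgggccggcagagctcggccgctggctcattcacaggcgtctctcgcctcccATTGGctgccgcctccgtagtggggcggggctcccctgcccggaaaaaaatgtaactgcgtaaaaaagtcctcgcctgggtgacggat
This stretch has a G and C content of 72.6%. Searched on both strands, it held 1 match to CCAAT, 88 bases before the start, as did 32.8% of the 32851 promoters over the same length. It held no match to the E-box CANNTG, found in 64.4% of promoters, to the T-box letters AGGTGTGA (1.06%), to the forkhead letters TGTTTAC (3.02%) or to the homeobox letters TAATTA (4.75%). These are matches of letters in 1 window and not measured binding.

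Cells with at least 2000 nuclear transcripts were kept, which left 543 of 576 barcodes at E6.75 and 429 of 1152 at E7.5. E7.5 replicate 5 kept 0 cells, so 11 E7.5 libraries with 15 to 71 cells entered the comparisons, against 85 to 96 cells at E6.75. Kept transcripts summed to 2918240 to 5486857 in an E6.75 library and 488326 to 2615333 in a tested E7.5 library. No 2 kept cells held identical values. Many marker genes differed between the stages, in a test that called 38.8% of all genes in either direction. Of those tested, 7 of 8 presomitic, 11 of 12 lateral and extraembryonic mesoderm, 3 of 3 cardiac, 4 of 5 blood and endothelium, and 6 of 7 endoderm and axial genes rose, while 9 of 10 epiblast and 6 of 7 visceral endoderm genes fell. Of 12 somite genes 1, Aldh1a2, passed the filter on low counts, and the list's summed level at E7.5 ran from 6.14 to 159 CPM (counts per 1000000 transcripts). Libraries were treated as separate samples, though the labels do not say which embryos they share, and p-values measure the spread between these libraries.

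Foxc1 and Foxc2 were almost absent at E6.75 and present in every E7.5 library. Levels are counts per 1000000 transcripts (CPM) of the summed kept cells of a library. By this measure, Foxc1 at E6.75 was 1.64 (replicate 2_13), 1.16 (2_14), 0.685 (2_12), 0.292 (1_11), 0.276 (2_9) and 0 (1_10). At E7.5, Foxc1 ran from 21.9 to 104 CPM with a median of 43.6 over 11 libraries. All E7.5 libraries lay above all E6.75 libraries, with means of 0.676 ± 0.622 (SD, n = 6) and 46.2 ± 23.6 CPM (SD, n = 11).

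Foxc2 was listed at 0 in 4 of the 6 E6.75 libraries and at 0.547 and 0.777 CPM in replicates 2_13 and 2_14. At E7.5 it ran from 23.1 to 91.7 CPM with a median of 51.7. Its means were 0.221 ± 0.349 (SD, n = 6) and 50.1 ± 24.1 CPM (SD, n = 11), and its groups did not overlap either. Of the genes tested, 4.01% had every E7.5 library above every E6.75 library.

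By edgeR's quasi-likelihood test with Benjamini-Hochberg adjustment, Foxc1 rose by a log2 fold change of 5.66 (SE 0.43, adjusted p = 3.81e-09) and Foxc2 by 7.06 (SE 0.52, adjusted p = 3.47e-09). The test called 38.8% of 9998 genes changed between the stages in either direction. Fitted folds against groups near 0 depend on the prior count and are not bounds. Fewer cells with the RNA and less RNA per cell cannot be told apart in such sums, so the cells were also counted.

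A Foxc1 transcript was found in 16 of 543 E6.75 cells (2.95%) and in 102 of 429 E7.5 cells (23.8%). Foxc2 was found in 6 cells (1.10%) and in 84 cells (19.6%). Positive E7.5 cells held a median of 4 transcripts of either gene, with up to 23 of Foxc1 and 31 of Foxc2, whereas 14 of the 16 E6.75 cells with Foxc1 held a single one. The few early transcripts were gathered in 2 libraries: 15 of 19 Foxc1 and 7 of 7 Foxc2 transcripts at E6.75 came from replicates 2_13 and 2_14, the deepest of that stage. These libraries also stood apart in the markers: T was found in 53.1% and 49.5% of their cells and in 10.6% to 20.4% in the other 4, and they held 28 and 17 of the 50 Mesp1-positive and 4 and 7 of the 15 Tbx6-positive cells. The part of depth or of these markers in the early transcripts was not tested.

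Because a deeper cell shows a rare RNA more often, shares were also computed as if each cell had been read to 2000 transcripts. The mean share per library then rose from 0.163% ± 0.141 to 6.26% ± 3.09 for Foxc1 (SD, n = 6 and 11, exact two-sided permutation test adjusted over 4 genes, p = 0.00226). For Foxc2 it rose from 0.0373% ± 0.0584 to 7.10% ± 4.01 (exact permutation test, adjusted p = 0.00226).

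Tcf15 was present in every library of both stages. At E6.75 it was found in more cells than the other members, with 6.93 CPM (replicate 2_13), 6.89 (2_9), 6.51 (2_12), 6.21 (2_14), 4.67 (1_11) and 3.97 (1_10). In the E7.5 libraries the level lay between 2.72 and 56.3 CPM, with a median of 9.70, and the highest value was that of replicate 8, a library of 15 cells. The ranges overlapped, with means of 5.86 ± 1.24 (SD, n = 6) and 14.1 ± 14.7 CPM (SD, n = 11).

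By edgeR's test the summed level of Tcf15 was higher at E7.5 by 1.09 log2 units (SE 0.40, adjusted p = 0.0351). That call was lost without E6.75 replicate 1_10 (adjusted p = 0.0703), 1_11 (0.0680), 2_12 (0.0514) or 2_14 (0.0546), without E7.5 replicate 1 (0.0560) or 12 (0.0503), and with the 4 E6.75 libraries of title prefix 2 alone (0.141). Leaving out E7.5 replicate 8 lowered the log2 fold change to 0.70. A Tcf15 transcript was found in 95 of 543 E6.75 cells and in 60 of 429 E7.5 cells, with a median of 1 transcript per positive cell at both stages and highest values of 5 and 26. At 2000 transcripts per cell its share was 1.07% ± 0.378 and 2.65% ± 2.54 (SD, n = 6 and 11), a difference that did not pass the exact permutation test (adjusted p = 0.160).

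Meox1 was found in the fewest E7.5 cells. Its E6.75 libraries lay between 0.194 and 1.65 CPM (median 0.756), and its E7.5 libraries between 0 and 18.6 CPM (median 2.43). The 4 E7.5 libraries at 0 were replicates 6, 9, 10 and 11, and the highest was replicate 4. Meox1 transcripts were found in 14 of 543 and in 28 of 429 cells. It did not pass the filter on low counts in the comparison of stages, and its share at 2000 transcripts per cell did not differ between stages by the exact permutation test (0.135% and 0.748%, adjusted p = 0.197). A fit without that filter put it 2.25 log2 units higher at E7.5 (SE 0.66, edgeR adjusted p = 0.0123).

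**Figure D1:**
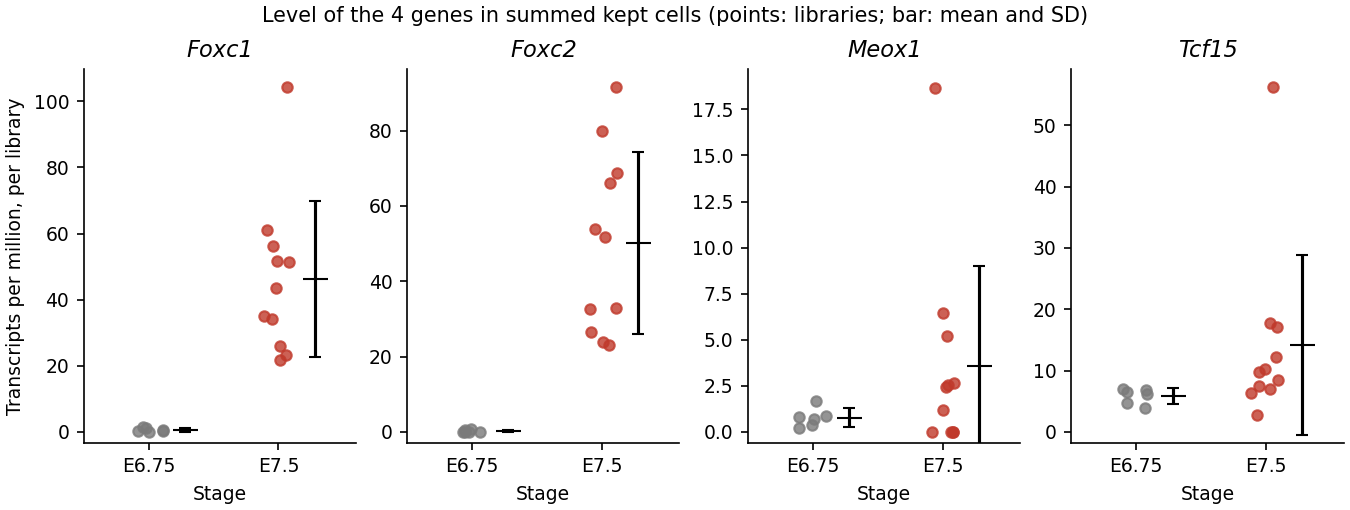
CPM of each gene in the summed kept cells of each library (points), by stage, with the mean and SD as a bar; each panel has its own linear axis. Foxc1 and Foxc2 lie at 0 to 1.64 at E6.75 and above 21 at E7.5, while Tcf15 and Meox1 overlap between stages.

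Within E7.5, cells with a Mesp1 transcript held far more Foxc1 and Foxc2. Of 429 cells, 137 held Mesp1. In these cells Foxc1 ran from 38.4 to 239 CPM over 11 libraries, with a median of 81.1, and in the Mesp1-negative cells of the same libraries from 0 to 28.5 CPM, with a median of 10.3. Foxc2 ran from 60.5 to 396 CPM (median 84.8) in positive and from 0 to 53.2 CPM (median 3.85) in negative cells. For both genes the lowest positive sum lay above the highest negative one, which held for 0.227% of the 6155 genes tested.

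Foxc1 was higher in Mesp1-positive cells by a log2 fold change of 2.89 (SE 0.27, adjusted p = 8.33e-08) and Foxc2 by 3.64 (SE 0.38, adjusted p = 3.36e-07), by edgeR's quasi-likelihood test with the library as a block. This test called 3.12% of genes higher and 3.31% lower. A Foxc1 transcript was found in 67 of 137 Mesp1-positive cells (48.9%) and in 35 of 292 negative cells, and Foxc2 in 43.8% and 8.22%. The positive cells were deeper, with a median of 39553 against 26169 transcripts. At 2000 transcripts per cell the share with Foxc1 was still 11.6 percentage points higher and that with Foxc2 16.0 points higher, each in 11 of 11 libraries (exact sign-flip permutation test adjusted over 16 comparisons, p = 0.00521).

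Tcf15 was also higher in the Mesp1-positive cells of most libraries. It ran from 2.55 to 138 CPM (median 15.8) in Mesp1-positive and from 0 to 14.3 CPM (median 3.06) in negative cells, and was higher in positive cells in 10 of 11 libraries, with replicate 11 the exception. It was found in 35 of 137 positive cells (25.5%) and in 25 of 292 negative cells (8.56%). Like Meox1 it did not pass the filter on low counts at E7.5 in any comparison between marker classes. For Foxc2 by Mesp1 a fit without the filter gave an SE of 0.19, against 0.38 with it. This SE is computed from the test statistic behind the p-value, so it restates a smaller p-value for a like difference. For Tcf15 a fit without the filter put it 2.66 log2 units higher (SE 0.31, edgeR adjusted p = 9.47e-16), but at 2000 transcripts per cell the share was 4.84 points higher with an adjusted p of 0.115 (exact sign-flip permutation test, 9 of 11 libraries). That share passed the test at 4000 transcripts per cell (10.2 points, adjusted p = 0.0188), without thinning (23.4 points, adjusted p = 0.00391) and without replicate 11 (5.93 points, exact permutation, adjusted p = 0.0188).

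Meox1 was found in 15 of 137 Mesp1-positive cells (10.9%) and in 13 of 292 negative cells (4.45%). It was higher in positive cells in 7 libraries and at 0 in both classes in 4. The share at 2000 transcripts per cell did not pass (1.53 points, exact permutation, adjusted p = 0.125), and was 0.817 points without replicate 4. The fit without the filter called Meox1 higher (1.79 log2 units, SE 0.54, edgeR adjusted p = 0.0265).

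**Figure D2:**
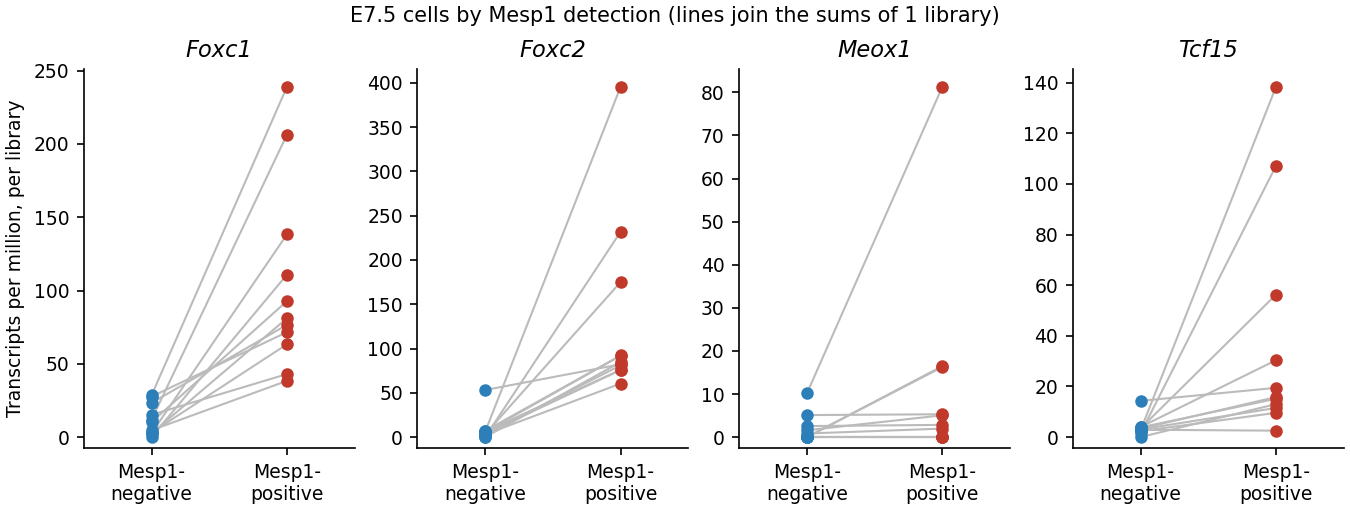
CPM of each gene in the summed Mesp1-negative and Mesp1-positive cells of the 11 E7.5 libraries; a line joins the sums of 1 library and each panel has its own linear axis. Foxc1 and Foxc2 rise in 11 of 11 libraries, Tcf15 in 10 and Meox1 in 7.

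Other genes marked the same cells. Of the presomitic list 4 of 5 tested genes were higher in Mesp1-positive cells and none lower, with a list median of 1.58 log2 units beside 0.01 over all tested genes: the Notch ligand genes Dll3 (log2 fold change 2.41) and Dll1 (2.28), Tbx6 (1.58) and the Wnt-enhancing Rspo3 (1.30). Of the streak list 4 of 6 were higher, led by the Nodal antagonist gene Lefty2 (4.48). Of the epiblast list 9 of 10 were lower, among them Utf1 (-2.13) and Sox2 (-2.12). Of the lateral and extraembryonic list 2 of 10 were higher, Foxf1 (1.83) and Gata4 (1.57). The somite, cardiac, and blood and endothelium lists had 1 tested gene each, and each was higher (1.77, 1.31 and 1.09).

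Cells with Tbx6 also held more Foxc1 and Foxc2. Of 429 cells, 130 held Tbx6. Foxc1 ran from 22.1 to 249 CPM (median 81.1) in Tbx6-positive and from 0 to 83.7 CPM (median 18.2) in negative cells, and was higher in positive cells in 10 of 11 libraries, replicate 1 being the exception. Foxc2 ran from 28.1 to 289 CPM (median 90.0) and from 4.09 to 77.7 CPM (median 20.9), and was higher in 11 of 11. The ranges of both genes overlapped.

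The log2 fold change was 2.11 for Foxc1 (SE 0.41, edgeR adjusted p = 0.00371) and 1.95 for Foxc2 (SE 0.31, edgeR adjusted p = 0.000565), where the test called 2.21% of 6503 genes higher and 1.41% lower. Tbx6-positive cells had a median depth of 38739 against 26206 transcripts. At 2000 transcripts per cell the share with Foxc1 was 12.5 points higher in 11 of 11 libraries (exact permutation, adjusted p = 0.00521) and that with Foxc2 7.02 points higher in 10 of 11 (adjusted p = 0.00781).

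Meox1 was found in 18 of 130 Tbx6-positive cells (13.8%) and in 10 of 299 negative cells (3.34%), and Tcf15 in 26 and 34 (11.4%). Neither difference passed at 2000 transcripts per cell (Meox1 1.17 points, adjusted p = 0.417; Tcf15 1.34 points, adjusted p = 0.391, exact permutation). Without replicate 4 the Meox1 value was 0.133 points, and without replicate 12 the Tcf15 value was 0.626 points. The fit without the filter on low counts called both higher (Meox1 2.14 log2 units, edgeR adjusted p = 0.0226; Tcf15 1.07, 0.0196). For Tcf15, 6 libraries were higher and 5 lower in the positive cells. Of other lists, 6 of 10 epiblast genes were lower in Tbx6-positive cells (list median -0.85), 3 of 6 streak genes and 2 of 2 presomitic genes were higher, and 1 of 8 lateral and extraembryonic genes was lower. Their part in the members' differences was not tested. Aldh1a2, which encodes the enzyme that makes retinoic acid in trunk mesoderm, was higher in Tbx6-positive cells by 3.07 log2 units (SE 0.32, edgeR adjusted p = 5.57e-06).

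T was found in 283 of the 429 cells, and neither forkhead gene differed past the threshold between cells with and without it when low counts were filtered. Foxc1 was higher in T-positive cells by 1.0 log2 units (SE 0.44, edgeR adjusted p = 0.389) and Foxc2 by 0.98 (SE 0.43, edgeR adjusted p = 0.386), in 7 and 8 of 11 libraries, where 1.35% of 6231 genes were called higher and 0.738% lower. Without replicate 6 the Foxc2 difference was 1.51 and passed (edgeR adjusted p = 0.0426). A fit without the filter called Foxc1 (1.05, edgeR adjusted p = 8.46e-05), Foxc2 (1.03, 4.72e-05) and Tcf15 (1.67, 0.000680) higher in T-positive cells, and did not call Meox1 (1.10, 0.826). That fit took the same counts but gave Foxc1 an SE of 0.21, against 0.44 with the filter. As the SE and the p-value come from the same test statistic, the smaller SE restates the smaller p-value for much the same difference. At 2000 transcripts per cell no member's share passed the exact permutation test, with differences of 0.963 to 3.44 points. All 4 presomitic genes tested rose with T, Dll1 by 2.78 and Tbx6 by 2.64 log2 units, as did the streak gene Sp5 by 2.38.

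Cells with Hand1, 193 of the 429, held less Foxc1. Foxc1 ran from 4.46 to 84.9 CPM (median 28.2) in Hand1-positive cells of 10 libraries and from 0 to 137 CPM (median 62.9) in Hand1-negative cells, and was lower in positive cells in 7 libraries and higher in replicates 3, 6 and 10. Foxc2 ran from 3.35 to 84.7 CPM (median 22.2) and from 0 to 134 CPM (median 55.3), with the same 7 and 3 libraries. The ranges overlapped widely.

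Foxc1 was lower with a fitted log2 difference of -1.29 (SE 0.31, edgeR adjusted p = 0.0183), where the test called 1.40% of 6792 genes lower and 1.93% higher. The Foxc1 call was lost without replicate 1 (-1.27, adjusted p = 0.0731), 2 (-1.08, 0.105) or 7 (-1.12, 0.0618), without the library block (-1.17, 0.279) and with DESeq2 (-1.10, 0.351). Foxc2 gave -1.37 (SE 0.43, edgeR adjusted p = 0.0937), and passed without replicate 3 (-1.76, 0.00885) or 6 (-1.74, 0.0177). In cells with at least 2 Hand1 transcripts against cells with none, both were lower (Foxc1 -2.06, edgeR adjusted p = 0.000465, and Foxc2 -2.59, 0.00118). Cells with exactly 1 Hand1 transcript, 72 of the 193, were left out of that fit.

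A Foxc1 transcript was found in 46 of 193 Hand1-positive cells (23.8%) and in 56 of 236 negative cells (23.7%). At 2000 transcripts per cell the share was 1.66 points lower in Hand1-positive cells for Foxc1 and 4.49 points lower for Foxc2, and neither passed the exact permutation test (adjusted p = 0.332 and 0.169). All 7 lateral and extraembryonic genes tested beside Hand1 rose in these cells, among them Tbx3 (4.03), Tbx20 (3.99) and Bmp4 (3.70), and 5 of 6 presomitic genes fell, led by the protocadherin gene Pcdh8 (-1.89).

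At E7.5, 75 cells held Tbx6 and no Hand1 (Tbx6-only) and 138 held Hand1 and no Tbx6 (Hand1-only). Of these, the cells of the 8 libraries with at least 3 of each kind were tested. Foxc1 ran from 0 to 246 CPM (median 99.6) in the Tbx6-only and from 0 to 92.5 CPM (median 11.6) in the Hand1-only cells, which fitted as 2.58 log2 units higher (SE 0.55, edgeR adjusted p = 0.00914). Foxc2 ran from 0 to 294 CPM (median 105) and from 0 to 56.9 CPM (median 12.9), which fitted as 2.33 log2 units higher (SE 0.50, edgeR adjusted p = 0.00940). Both were higher in the Tbx6-only cells in 6 of 8 libraries, and 2.61% of 5442 genes were called higher and 1.91% lower there.

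The fit without the filter called Meox1 (2.98, edgeR adjusted p = 0.0101) and Tcf15 (1.43, 0.0192) higher in the Tbx6-only cells. For Foxc1 and Foxc2 DESeq2 gave 2.82 (adjusted p = 0.240) and 2.49 (adjusted p = 0.207), past no threshold, and without replicate 2 the Foxc2 call was lost (2.15, edgeR adjusted p = 0.0610). Foxc1 passed the filter in only 4 of the 8 leave-outs and kept its call in these. A Meox1 transcript was found in 11 of the 75 Tbx6-only cells (14.7%) and in 3 of the 138 Hand1-only cells (2.17%), and a Tcf15 transcript in 25.3% and 11.6%. Aldh1a2 was again higher with Tbx6 (3.04), and Bmp4 (-4.63) and Msx2 (-4.10) were lower. By list, 2 of 2 presomitic genes (list median 1.94) and 3 of 5 streak genes (2.39) were higher in the Tbx6-only cells. All 5 lateral and extraembryonic genes tested were lower (-2.77), and of 10 epiblast genes 1 was higher and 2 were lower.

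**Figure D3:**
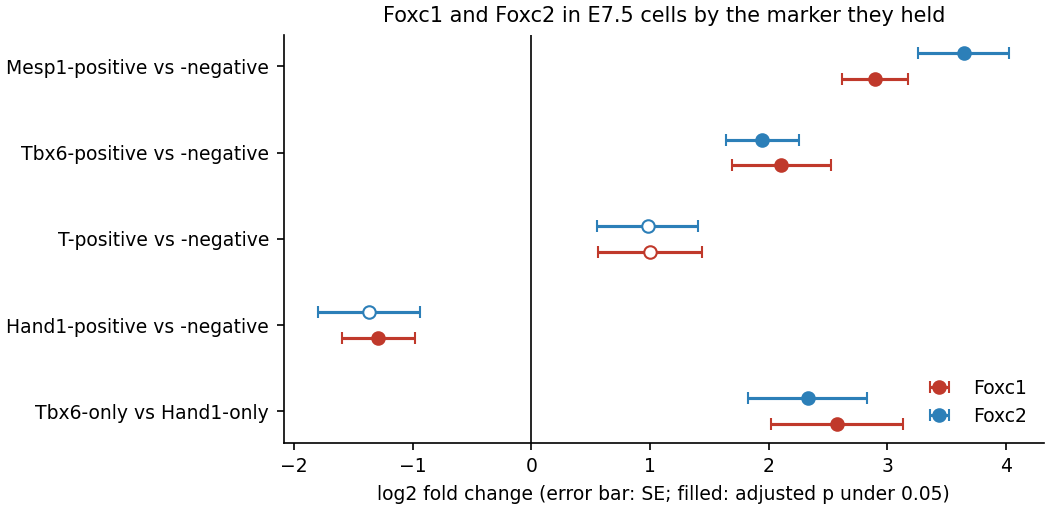
Fitted log2 fold change with its SE (x axis) of Foxc1 and Foxc2 for 5 comparisons between E7.5 cells that held or lacked a marker transcript; filled points have an edgeR adjusted p under 0.05. The values go from 3.64 for Foxc2 with Mesp1 to -1.37 for Foxc2 with Hand1, with those for T between them and open.

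The markers combined. Foxc1 was found in 66.2% of the 68 E7.5 cells with both Mesp1 and Tbx6 (exact 95% binomial interval 53.7 to 77.2), in 31.9% of the 69 with Mesp1 alone, in 13 of the 62 with Tbx6 alone and in 9.57% of the 230 with neither. Foxc2 gave 55.9% (43.3 to 67.9), 31.9%, 9.68% and 7.83% in the same order. The intervals in cells with Tbx6 alone overlapped those in cells with neither marker, for Foxc1 (11.7 to 33.2 and 6.09 to 14.1) and for Foxc2 (3.63 to 19.9 and 4.70 to 12.1). Intervals cover counting error only, cells of 1 library share their source, and the median depth fell along the same order, from 44706 to 32054, 30139.5 and 24369 transcripts.

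Tcf15 was found in 29.4% of cells with both markers, 21.7% with Mesp1 alone, 9.68% with Tbx6 alone and 8.26% with neither, the order seen for Foxc2. Meox1 had another order: 13.2%, 8.70%, 14.5% and 1.74%, so that its 3 marker-bearing classes had intervals that overlap and the double-negative cells the lowest share. The double-negative interval (0.476 to 4.39) also overlapped that with Mesp1 alone (3.26 to 18.0). It lay below those with both markers (6.23 to 23.6) and with Tbx6 alone (6.86 to 25.8). Among Mesp1-positive cells, those without Hand1 held Foxc1 in 57.6% and Tcf15 in 33.3% of 66 cells, and those with Hand1 in 40.8% and 18.3% of 71. The intervals overlapped for Foxc1 (44.8 to 69.7 and 29.3 to 53.2) and for Tcf15 (22.2 to 46.0 and 10.1 to 29.3). This contrast was not tested. The 37 cells with Mesp1, Tbx6 and T but no Hand1 had, among classes by all 4 markers with over 10 cells, the highest share for each gene: Foxc1 in 73.0%, Foxc2 in 64.9%, Tcf15 in 40.5% and Meox1 in 16.2%. For Meox1 this was nearly a tie with the 19 cells with Tbx6, T and Hand1 but no Mesp1 (15.8%). The Meox1 intervals were 6.19 to 32.0 and 3.38 to 39.6. The median depth of the 37 cells was 43072 transcripts.

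Some E7.5 cells with no marker transcript still held the members. Of 69 such cells, whose median depth was 17001 transcripts, Foxc1 was found in 7 (10.1%), Tcf15 in 7, Foxc2 in 5 and Meox1 in 2. A cell can express a marker and show no transcript of it at this depth.

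**Figure D4:**
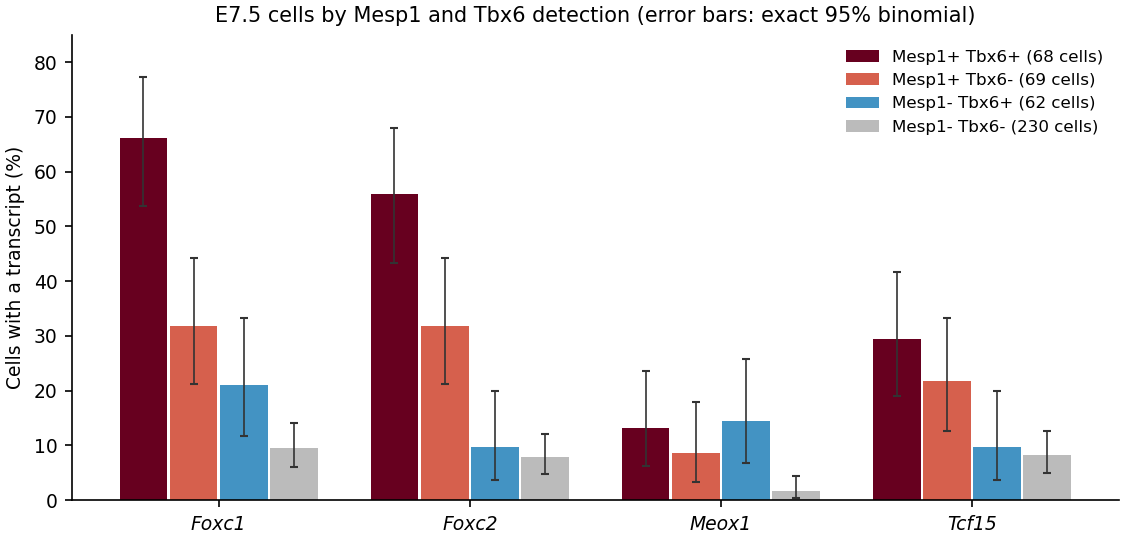
Percent of E7.5 cells with a transcript of each gene (bars, with exact 95% binomial intervals) in 4 classes set by Mesp1 and Tbx6 detection. For Foxc1 the bars fall from 66.2 to 9.57 and for Foxc2 from 55.9 to 7.83, while Meox1 lies between 1.74 and 14.5.

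At E6.75 the forkhead transcripts, though few, lay in cells with streak or mesoderm markers. Of the 16 cells with Foxc1, 15 held T, 8 Mesp1, 7 Hand1 and 4 Tbx6, and all 16 held at least 1 of these, beside 194 of all 543 cells. None of the 349 cells without a marker held a Foxc1 transcript, which allows a share of cells with a transcript of up to 0.860% for counting error alone, and 1 held Foxc2. In the 10 cells with both Mesp1 and Tbx6, Foxc1 was found in 4 and Foxc2 in 3. Marker-positive cells were deeper here too, with a median of 54649 transcripts with T, 30374 without T and 29581 in the 349 unmarked cells. At 2000 transcripts per cell, the Foxc1 share in T-positive minus T-negative cells was 1.64 points in replicate 1_11 and 0.689 in 2_12. It was 0.570 in 2_13, 0.321 in 2_14, 0.217 in 2_9 and 0 in 1_10. By Hand1 the difference was -0.290 in 1_11, -0.138 in 2_12, 0 in 1_10, 0.300 in 2_13 and 0.656 in 2_14. Replicates 1_11, 2_12 and 2_9 held 1 cell with Foxc1 each. These differences were not tested, nor was the part of depth in the contrast. Foxc1 failed the filter on low counts for Mesp1, T and Hand1 at this stage. Without that filter it was called for T (3.75 log2 units, SE 1.16, edgeR adjusted p = 0.0471) and not for Mesp1 (2.47, adjusted p = 0.649) or Hand1 (1.71, 0.691). In the filtered fit for Tbx6 (2 libraries, 1.65% of 10262 genes called higher) its log2 fold change was 3.23 (SE 1.25, edgeR adjusted p = 0.212).

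Tcf15 at E6.75 did not keep to the marked cells: it was found in 55 of the 349 cells without a marker (15.8%), and in 48 of 236 such cells with the epiblast gene Sox2 (20.3%). Meox1 was found in 9 of the 349 unmarked cells (2.58%) and in 0 of 15 with Tbx6. Tcf15 was lower in Mesp1-positive than in Mesp1-negative cells in 3 of 3 libraries, at 2.03, 3.73 and 4.41 CPM against 7.65, 8.25 and 6.60 CPM in replicates 2_9, 2_13 and 2_14. The log2 fold change was -1.04 (SE 0.50, edgeR adjusted p = 0.590, 0.537% of 10059 genes called lower). With T it was 0.01 (SE 0.33, edgeR adjusted p = 1.0, 1.66% of 9936 genes called higher).

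The relation of Tcf15 to Mesp1 differed between the stages in the main fit, whose E6.75 side rested on 11 Tcf15 transcripts in Mesp1-positive cells. The change in the Mesp1-positive to Mesp1-negative ratio from E6.75 to E7.5 was 3.75 log2 units (SE 0.78, edgeR interaction, adjusted p = 0.0194), in a test that called 0.0973% of 8220 genes in this direction and 0.268% in the other. The call was lost without E6.75 replicate 2_13 (3.68, adjusted p = 0.158) or 2_9 (3.57, 0.0860), without the library block (3.76, 0.293) and by a small margin with DESeq2 (3.83, 0.050). Foxc1 and Foxc2 gave 0.64 (SE 1.80) and 1.18 (SE 5.31), each with an edgeR adjusted p of 1.

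**Figure D5:**
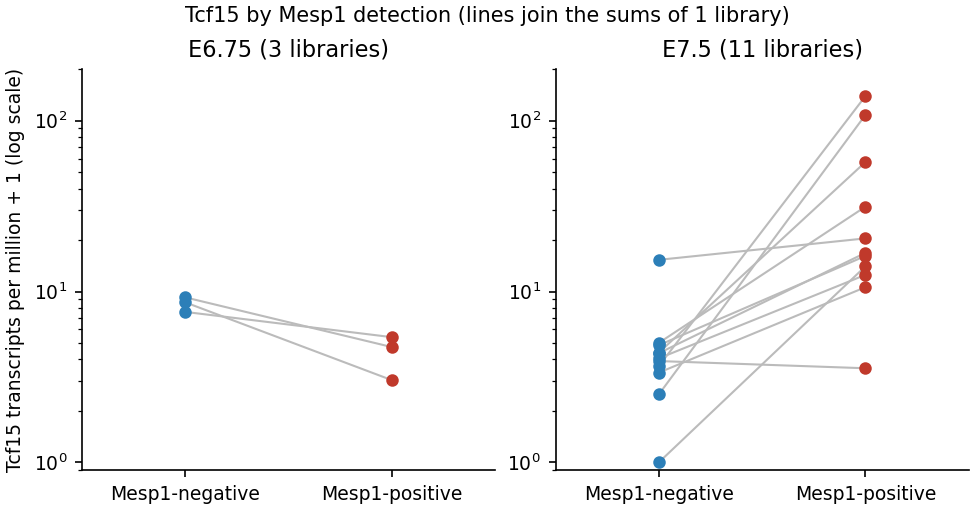
Tcf15 CPM plus 1 (log scale) in summed Mesp1-negative and Mesp1-positive cells, with lines that join the sums of 1 library, at E6.75 (3 libraries) and E7.5 (11 libraries). The 3 E6.75 lines fall and 10 of the 11 E7.5 lines rise. The E6.75 Mesp1-positive sums held 11 Tcf15 transcripts in all.

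Most pairs of members occurred in the same E7.5 cells more often than their frequencies in each library would give. Foxc1 and Foxc2 were found together in 59 cells where 22.3 were expected from independence within libraries, with a mean log2 ratio of 1.24 ± 0.54 (SD) above 0 in 11 of 11 libraries (exact sign-flip permutation test adjusted over 6 pairs, p = 0.00293). Foxc2 and Tcf15 shared 36 cells against 13.4 expected, with a ratio of 1.04 ± 0.55 (11 of 11 libraries, exact permutation, adjusted p = 0.00293). Both raw p-values are the smallest that 11 libraries allow. Cells with none of the 4 genes had a median depth of 24728 transcripts, and those with 3 or all 4 had 47206 and 48443. With independence taken within library and depth class, the 2 ratios were 1.08 and 0.92 (exact permutation, adjusted p = 0.00586 for both). Within the cells that held Mesp1, Tbx6 or both the ratios were 0.74 for Foxc1 and Foxc2 (exact permutation, adjusted p = 0.0117) and 0.63 for Foxc2 and Tcf15 (adjusted p = 0.0278).

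Meox1 shared 17 cells with Foxc2 against 5.51 expected and 15 with Tcf15 against 4.59, each above expectation in 7 libraries and below in none (exact permutation, adjusted p = 0.0234 for both). Foxc1 and Tcf15 shared 29 against 16.0 expected (log2 ratio 0.56, exact permutation, adjusted p = 0.0363), a call lost in 8 of the 11 leave-outs (without replicate 1, 3, 4, 6, 7, 8, 9 or 10, adjusted p between 0.0563 and 0.0680), and with independence taken within library and depth class (0.0879). Foxc1 and Meox1 shared 15 against 6.94 (adjusted p = 0.0625), which passed without replicate 7 (exact permutation, adjusted p = 0.0375).

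All 4 genes were found in 9 E7.5 cells and none of them in 274. Exactly 3 were found in 25 cells, of which 18 lacked only Meox1. Foxc1 was alone in 39 cells, Tcf15 in 19, Foxc2 in 15 and Meox1 in 6. At E6.75, Tcf15 was alone in 88 of the 95 cells that held it.

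Over the 429 E7.5 cells, the genes whose levels followed each member most closely were ranked by Pearson's r of log2 counts per 10000 within libraries, among 12216 genes. These values describe sparse counts in cells that share libraries and depth. For Foxc1 the leading genes were Foxc2 (0.63), the laminin gene Lama1 (0.57), Pcdh19 (0.56), Irx1 (0.53) and Gabbr2 (0.52). For Foxc2 they were Pcdh19 (0.64), Foxc1 (0.63), the mesenchymal factor gene Twist1 (0.63), Rasgrp3 (0.58) and the retinoic acid binding protein gene Crabp1 (0.55).

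For Tcf15 they included Foxc2 (0.53), Twist1 (0.43), Dnajc22 (0.36) and Meox1 (0.35). For Meox1 they were Slc44a5 (0.53), Aldh1a2 (0.51), Nudt17 (0.44), Gm9797 (0.43) and Pth1r (0.43), with Meox1 itself found in only 28 cells. For the marker genes, Foxc1 gave 0.34 with Tbx6, 0.29 with Mesp1, 0.01 with T and -0.15 with Hand1, and Foxc2 gave 0.14 with Tbx6 and 0.29 with Mesp1.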

How the data were processed

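Cells of 6 E6.75 and 12 E7.5 libraries were measured. The authors deposited expected counts for each gene in each barcode, whose values equal whole UMI numbers corrected for collisions in a pool of 4096 sequences. Bcl2fastq 2.17.1.14 and BWA 0.6.2-r126 are named, without a role, per the submitters' processing notes, while the genome build, the counting step and its use of strand are not given in the sources used here. Of 192 barcode columns, the 96 in use per library were taken. The counts were rounded, and mitochondrial genes (22) and spike-ins (74) were left out. No doublet caller was run on these picked or sorted cells.

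A cell was positive for a marker with at least 1 transcript. Rounded counts were summed per library and class (at least 3 cells of each, and libraries of at least 10 kept cells), and tested with edgeR 4.0.16 in R 4.3.3 (TMM, filterByExpr, quasi-likelihood test, Benjamini-Hochberg over all genes tested, threshold 0.05). Marker comparisons had the library as a block, because both classes come from the same library. The SE of an edgeR fit was computed as the absolute log2 fold change over the square root of the F statistic. Shares and co-detection (pseudocount 0.5) were tested by exact permutation in Python 3.11.15 with numpy 2.4.6, with shares expected at 2000 transcripts per cell. On simulated data for the stage comparison (9969 genes), 49% of genes changed by 1 log2 unit and 99.0% of those changed by 2 were recovered. For the Mesp1 comparison (6071 genes) these were 62.2% and 100%. Of the calls made, 5.16% and 2.6% were false in the stage and Mesp1 simulations. Changed genes were drawn above a floor of mean counts, with the same dispersion for all genes and no library effect beyond depth. These rates do not describe genes below that floor.

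Named were the 4 members and 4 markers, list genes that passed the test (up to 4 per list with the largest change) and the 5 genes most correlated with each member, of which 1 is not reported here. The members and lists were chosen with earlier results of these data known. A gene that fixes a class was left out of that comparison's list counts. Alternatives were DESeq2 1.42.0, no filter on low counts, other marker and depth thresholds, no block, fewer cells and leaving out each library. With a marker threshold of 2 transcripts, cells with 1 were left out. Leave-outs in the interaction tests and the E6.75 prefix 2 shares were added after seeing the data.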

Additional observations from a re-analysis of the deposited data

Results flagged for a closer look

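Of 16 groups of 4 to 10 libraries checked for a single library far from the rest, 4 were marked. The nominal rate of the rule is about 1 in 20, which was not checked on these values. The share of cells with Meox1 at 2000 transcripts was -0.342 points (Hand1-positive minus Hand1-negative) in E6.75 replicate 1_10, where the nearest library gave -0.142. It was 1.17 points (T-positive minus T-negative) in the same replicate, with 0.237 the nearest. At E7.5, replicate 4 gave -3.76 points for Meox1 by Hand1, with -0.590 the nearest, and it was also the library with the highest Meox1 level. For Foxc2 by T, E6.75 replicate 2_14 gave 0.253 points and the nearest library 0.

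The difference of Tcf15 between Mesp1-positive and Mesp1-negative cells changed by 3.75 log2 units from E6.75 to E7.5 by the edgeR interaction test reported above. Barcodes outside the 96 in use per library, 1728 in all, held 16 Foxc1 and 5 Foxc2 transcripts, above the 3 counts that a count of 0 allows, and 3 of Tcf15 and 0 of Meox1.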

How the results depend on the processing

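Apart from leave-outs, 195 alternative values kept direction and call, 38 counts moved, 12 calls were lost, 6 were gained and 2 directions turned. Of the leave-outs 696 kept both, 26 moved, 20 lost and 6 gained a call, and 6 turned. Unless stated, the cause was not tested.

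Thinning cells to 2000 transcripts left fewer genes to test, and the count of calls, whose overlap was not computed, went from 3879 to 602 by stage. At E7.5 it went from 396 to 5 for Mesp1, 236 to 12 for Tbx6, 130 to 5 for T, 226 to 16 for Hand1 and 246 to 25 for Tbx6-only against Hand1-only cells. At E6.75 it went from 125 to 16 (Mesp1), 361 to 12 (T) and 198 to 8 (Hand1). No member passed the filter in the thinned marker fits. Without the filter on low counts the counts were 923, 610, 370, 495 and 611 at E7.5, in that order, and 330, 566 and 649 at E6.75. At E7.5 the SEs of Foxc1 and Foxc2 were smaller in that fit than with the filter in every marker comparison. In that fit Foxc1 (1.05) and Foxc2 (1.03) passed for T, as did Foxc2 for Hand1 (-1.34). Members that had failed the filter also passed there: Meox1 by stage (2.25), Meox1 (1.79) and Tcf15 (2.66) for Mesp1, Meox1 (2.14) and Tcf15 (1.07) for Tbx6, Tcf15 for T (1.67), Meox1 (2.98) and Tcf15 (1.43) for Tbx6-only against Hand1-only cells, and Foxc1 for T at E6.75 (3.75). DESeq2 called 147 genes for Tbx6-only against Hand1-only cells, 63 (Mesp1), 155 (Tbx6, against 391) and 174 (T) at E6.75, and 14 (against 30) in the Mesp1 interaction. It lost Foxc1 for Hand1 (-1.10), Foxc1 (2.82) and Foxc2 (2.49) for Tbx6-only against Hand1-only cells, and the Tcf15 interaction (3.83). With at least 2 Hand1 transcripts against none, 410 genes were called at E7.5, where Foxc2 passed (-2.59), and 352 at E6.75. Restriction to cells with any marker gave 74 (T) and 148 (Hand1) at E7.5, and 37 (Mesp1), 56 (T) and 75 (Hand1) at E6.75. With prefix 2 libraries alone Tcf15 by stage was 0.93 and lost its call.

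Marker comparisons pair both classes of a library through the block. With no replicate block the counts were 70 (T), 53 (Hand1) and 147 (Tbx6-only against Hand1-only) at E7.5, and 48 (Mesp1) and 81 (T) at E6.75. In the interactions they were 0 (Mesp1), 8 against 60 (Tbx6), 3 against 42 (T) and 21 against 82 (Hand1). Foxc1 for Hand1 (-1.17) and the Tcf15 interaction (3.76) lost their calls, and dropping the block changed no other member's call. No paired analysis was possible between stages because their libraries share no replicate number.

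The share with Tcf15 by stage was -1.42 points without thinning, and that with Foxc1 by Hand1 3.92. The share with Tcf15 by Mesp1 passed at 4000 transcripts (10.2) and without thinning (23.4). Co-detection of Foxc1 and Tcf15 lost its call with a pseudocount of 0.1 (0.58), within depth classes (0.35) and in cells with Mesp1 or Tbx6 (0.34). With at least 2 transcripts Foxc2 and Meox1 (0.39) and Meox1 and Tcf15 (0.43) lost theirs.

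Leaving out single libraries moved Tcf15 by stage between 0.70 and 1.18. For T at E7.5, counts ran from 83 to 149 and Foxc2 from 0.55 to 1.51. For Hand1, counts ran from 119 to 299, Foxc1 from -1.45 to -1.08 and Foxc2 from -1.76 to -1.19. For Tbx6-only against Hand1-only cells, counts ran from 116 to 307 and Foxc2 from 2.01 to 2.78. At E6.75, counts ran from 112 to 275 (Mesp1), 172 to 361 (T) and 83 to 439 (Hand1), and Tcf15 for T from -0.19 to 0.14, turning without replicate 1_10 (-0.14) or 1_11 (-0.19). Leave-outs of the interactions, added after seeing the data, gave counts of 13 to 47 (Mesp1), 2 to 74 (Tbx6), 25 to 54 (T) and 48 to 174 (Hand1). Foxc1 for Mesp1 ran from -0.19 (without 2_13) to 1.08 and Tcf15 from 3.43 to 4.32. Foxc2 for Tbx6 ran from -2.30 to 4.16 and for T from -1.13 to 0.60, both turning without 2_14. Shares ran from 3.47 to 5.93 (Tcf15 by Mesp1), -0.704 (without replicate 8) to 4.24 (Foxc2 by T) and 1.23 to 3.41 points (Tcf15 by T, passing without replicate 1). Co-detection ran from 0.32 to 0.55 (Foxc1 and Meox1) and 0.49 to 0.74 (Foxc1 and Tcf15). For Tbx6 at E6.75, the threshold of 2 transcripts, thinning and leave-outs were not run, since too few libraries or cells remained. Of the positive E7.5 cells, 18 of 28 for Meox1 and 37 of 60 for Tcf15 held 1 transcript, and low expression and limited depth cannot be told apart there.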
